A study of Arabidopsis thaliana with 21 samples.

Results

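In germinating Arabidopsis thaliana seeds, 119 of 27789 measured genes were high while the root emerged and lower both before and afterwards. The stages are dry seed (DS), 6 h of imbibition (6H), testa rupture (TR), radicle protrusion (RP), root hair formation (RH), greening cotyledons (GC) and fully opened cotyledons (OC). Genes were taken when the lowest of their mean log2 levels at TR, RP and RH exceeded the highest of their means at DS, 6H and OC by at least 1 log2 unit, which is a 2-fold difference. This difference is called the margin here. The choice used the levels at 6 of the 7 stages, so the rise into TR and the low level at OC are descriptions and were not tested. The level at GC had no part in the choice, and neither did the order of TR, RP and RH among themselves.

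Germination begins when the dry seed takes up water and ends when the radicle, the embryonic root, breaks through the testa and the endosperm around it. The embryo first grows mainly by cell enlargement, and DNA replication starts in the root tip before cells divide. Later the seedling forms root hairs, turns green and leaves its stored reserves behind. A cuticle of wax and cutin covers the emerging shoot and the endosperm.

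All samples were cultivar Col-0, with 3 biological replicates at each of the 7 stages, each replicate a pool of seeds harvested from 3 to 4 plants. Seeds had 72 h of cold at 4 °C on wet paper, then constant white light at 22 °C. For every stage 3000 individuals were picked under a stereomicroscope. The labels call the material seeds up to RH and seedlings at GC and OC, and what the 6 h count from is not stated. RNA came from whole seeds or seedlings. In such bulk samples fewer cells of a type and less RNA per cell cannot be told apart.

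The marker lists of seed maturation, root hairs and green cotyledons changed in the order of the labelled stages. The summed level of 22 seed maturation genes on the log2 scale was 15.57 to 15.68 over the DS arrays and 8.62 to 9.03 over the RH arrays. That of 28 root hair genes was 10.13 to 10.18 at RP and 12.97 to 13.05 at RH, and that of 21 green cotyledon genes went from 9.96 to 10.18 at DS up to 14.86 to 14.92 at OC. The sum of 16 seed coat genes, in contrast, was 8.02 to 8.10 at DS and 11.18 to 11.35 at OC. None of the 119 genes was in these lists or in the lists for endosperm, seed coat, root cap and stele. The endosperm list of 14 genes had 7 genes below the background level at TR, RP and RH, and its sum was 12.11 to 12.49 over these 9 arrays. Background is taken as 3.47, the 30th percentile of all values, and a mean below it is only a bound on the true level.

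A pair of arrays stood apart for these genes. Replicate 1 at 6H was above both other replicates in 106 of the 119 genes, against 33.7% of all genes. Its median difference from the mean of the other replicates was 0.43 over all 119. Replicate 2 at DS was the highest in 73 of the 119, against 38.8% of all genes. Its median difference, taken in the same way over all 119, was 0.31. The tilt at 6H went beyond these genes. Of 2787 other genes whose TR mean was at least 1 above replicates 2 and 3 at 6H, 66.8% had replicate 1 above both, and of 2103 genes whose TR mean was at least 1 below them, 62.3% had it below both. With replicate 2 held out in the same way the shares were 20.9% and 17.0%, and with replicate 3 they were 21.5% and 34.1%. Without replicate 1 at 6H the rule took 142 genes.

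**Figure D1:**
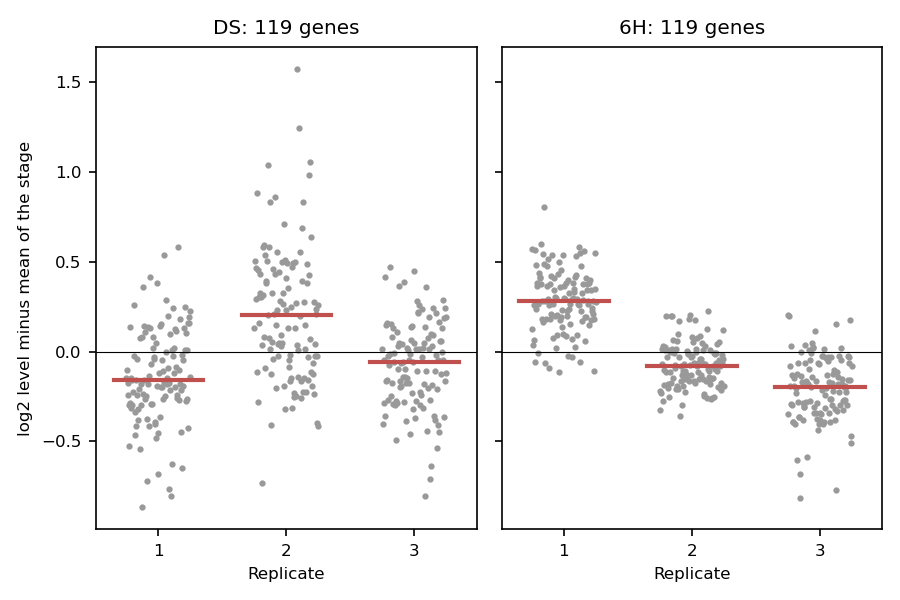
Level of each of the 119 genes on each array at DS (left) and 6H (right), minus the mean of the 3 replicates (log2). Each grey point is 1 gene and each red bar the median of a replicate. At 6H replicate 1 lies above the other replicates, and at DS replicate 2 does.

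The margin ran from 1.01 to 4.26 with a median of 1.29, while the median over all genes was -0.79. It reached 1.5 in 37 genes, 2 in 13 and 2.5 in 8. On single arrays, the 9 of TR, RP and RH lay above the 9 of DS, 6H and OC in all 119 genes and in 4.09% of all genes, a separation that the choice of the genes largely fixes. Just inside the threshold were bHLH34, BARD1 and WDL1 with margins of 1.014, 1.014 and 1.011. Just outside were MAP65-5, AT3G27400 and AT1G75190 with 0.999, 0.998 and 0.994.

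The median level of the 119 genes was 3.65 at DS, 5.33 at 6H, 7.64 at TR, 7.78 at RP, 7.43 at RH, 6.85 at GC and 5.62 at OC. Over all genes the median stayed between 4.76 and 5.30. At DS 44 of the 119 had a mean below background, at 6H 14 and at OC 5, and at no other stage did any. The highest of the 3 low stages was OC for 72 genes, 6H for 43 and DS for 4. The median at OC thus lay above that at DS, and the genes as a group did not return to the level of the dry seed.

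Among genes that had risen by TR, an OC mean below all 3 high stages was the less frequent pattern. The means at TR, RP and RH were at least 1 above DS and 6H in 1775 genes, whatever OC did, and the 119 were 6.7% of them. In 1278 of the 1775, or 72%, the OC mean was at or above the lowest of the 3 high stages. Such a mean can still lie below the peak of the gene.

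**Figure D2:**
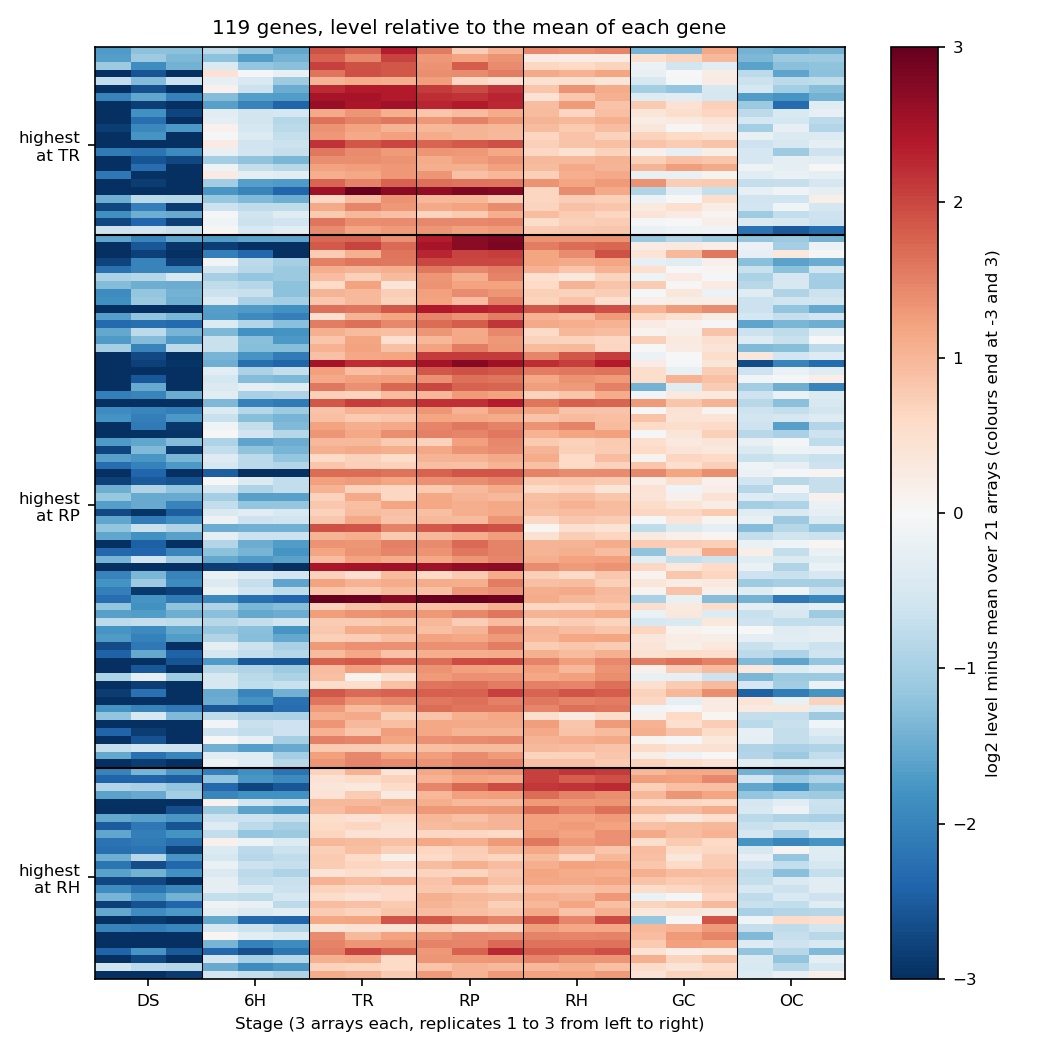
Levels of the 119 genes (rows) on 21 arrays (columns, 3 per stage), each minus the mean of the gene over all arrays on the log2 scale. Rows are grouped by the stage with the highest mean, 24 at TR, 68 at RP and 27 at RH, and sorted by the lead of that stage. GC is intermediate in most rows and nearest to the high stages in the lower block.

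LATE, a C2H2 zinc finger protein named for delaying flowering, had the widest margin, 4.26. Its 3 arrays read 3.95, 4.23 and 4.11 at DS, 5.57, 4.78 and 4.65 at 6H, 9.54, 9.25 and 9.27 at TR, 9.55, 9.80 and 9.59 at RP, 9.25, 9.12 and 9.41 at RH, 7.29, 6.99 and 7.40 at GC and 4.37, 5.03 and 4.74 at OC. The 9 arrays of TR to RH lie close together, and GC stands alone between them and the low stages. From RH to GC it fell by 2.04 ± 0.20 (SE; limma, adjusted p = 6.6e-07). AGL102, a MADS-box protein, had a margin of 1.80 and fell by 1.15 ± 0.16 at the same step (adjusted p = 4.5e-05).

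In 4 genes (CYP96A8, AT2G17850, FOLB3 and AT4G31760) every low stage had a mean below background, so their margins are bounds and have no exact rank. The next 3 by margin were CYP96A3 (3.42), AT1G07690 (2.90) and CYP96A8 (2.85), followed by AT5G01870 (2.83), AT4G12870 (2.75), SAG29 (2.59), AT1G06360 (2.58), AT4G33145 (2.32) and AT2G17850 (2.29). AT5G55340, FOLB3, AT2G27420, AT2G44580 and AT5G16340 had margins of 2.28, 2.13, 2.1, 1.94 and 1.93. AT4G12870 read 7.36, 7.13 and 7.31 at RH, 7.40, 7.53 and 7.39 at GC and 4.56, 4.30 and 4.68 at OC, so its GC arrays were all above its RH arrays and its decline came after GC. AT2G17850 had 1 deviating array, with GC values of 3.1, 3.08 and 5.65 beside 5.93, 5.87 and 5.94 at RH. The sum of the seed maturation list also varied among the GC arrays, from 8.70 to 9.93, and its part in this value was not tested.

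By known role, 58 of the 119 were grouped, and 61 were left ungrouped. Being left ungrouped does not mean that a gene has no known role. Replication genes formed the largest group together with those of chromatin and repair. They were PCNA1, the sliding clamp of DNA polymerase, ORC6 of the origin recognition complex, CDC6, which loads the replicative helicase, MCM3, MCM5 and PRL (MCM7) of that helicase, MCM10, RPA70B and AT3G52630 (RPA3A) of the single-strand binding complex and the cyclin CYCA3;1. Beside them stood 8 genes of chromatin and DNA repair: FAS1 of the histone chaperone CAF-1, AT5G10390 (H3.1), a replication-type histone, the maintenance methyltransferase MET1, HMGB6, SDG4, BRCA1, its partner BARD1, and BRCA2(IV). Histone H3 has near-identical gene copies, so the probe set of AT5G10390 may read several. These 18 genes were grouped by known role after their values were seen.

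PCNA1 read 2.94, 3.66 and 3.01 at DS, 6.27, 6.02 and 5.26 at 6H, 7.77, 7.74 and 7.44 at TR, 7.64, 7.69 and 7.70 at RP, 7.28, 7.36 and 7.41 at RH, 6.38, 6.21 and 6.59 at GC and 5.97, 5.55 and 5.66 at OC. DS lay near background, 6H already carried part of the rise, and TR and RP overlapped. It rose by 2.65 ± 0.21 from DS to 6H (limma, adjusted p = 1.3e-09) and fell by 0.96 ± 0.21 from RH to GC (adjusted p = 0.0025). MCM5 read 7.97, 7.99 and 8.10 at RP, 7.39, 7.41 and 7.38 at RH and 6.81, 7.13 and 6.73 at GC, with no overlap between the 3 stages. It fell by 0.62 ± 0.14 (adjusted p = 0.0032) and then by 0.50 ± 0.14 (adjusted p = 0.016).

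All 18 had their highest mean at RP, where 68 of the 119 did, and in all 18 the GC mean lay between the high and the low stages. RP exceeded the second highest stage by only 0.02 to 0.42. None of the 18 passed limma's test between TR and RP at adjusted p alone, where 15.3% of all genes did. At adjusted p alone, 17 of the 18 rose from DS to 6H, 10 of them by at least 1, where 29.6% of all genes rose at adjusted p alone. MCM3 rose by 2.90 ± 0.17, AT3G52630 by 2.75 ± 0.34, MCM5 by 2.24 ± 0.14 and MET1 by 2.07 ± 0.22, and BARD1 had a change of 0.36 ± 0.22 that did not pass (adjusted p = 0.15). From RP to RH 6 fell at adjusted p alone (MCM3, MCM5, PRL, CDC6, ORC6 and SDG4), each by less than 1, where 11.9% of all genes did. From RH to GC 7 did, where 10.9% of all genes did, with a median change of -0.48 over the 18.

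The wider list of 37 replication and cell division genes held 6 of the 119, or 16.2% of its members, against 0.428% of all genes. Of its 16 replication genes, 10 had their highest mean at RP, 4 at TR and 2 at 6H. Among the 16, 14 rose and none fell from DS to 6H at adjusted p alone (with 2 not passing). Of all genes 29.6% rose and 40% fell at this step. From TR to RP 0 of the 16 passed the test, where 15.3% of all genes did. From RP to RH 11 fell, against 11.9% of all genes, and from RH to GC 7 fell, against 10.9%. The median level of the 16 was 3.88 at DS, 6.20 at 6H, 7.74 at RP, 6.42 at GC and 5.81 at OC, and 5 of them met the rule. The other subunits of the MCM helicase missed the rule with 6H as their highest low stage: margins were 0.71 for MCM2, 0.97 for MCM4 and 0.67 for MCM6. PCNA2 had 0.42, ORC1B 0.56 and ORC2 0.50, while the ribonucleotide reductase genes RNR1 and RNR2A were highest at 6H, with -0.63 and -1.73.

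The 13 genes of mitosis in the same list ran later. These are the B-type cyclins, the B-type cyclin-dependent kinases, the Aurora kinases AUR1 and AUR2, the cytokinesis syntaxin SYP111 (KNOLLE) and the spindle protein TPX2. All 13 had their highest mean at GC, and none of the 119 did. Their median level was 3.16 at 6H, 4.43 at TR, 5.13 at RP, 5.72 at RH, 6.90 at GC and 5.85 at OC. From RH to GC 10 of the 13 rose at adjusted p alone and none fell, where 10.1% of all genes rose, a step at which 7 of the 16 replication genes fell and none rose. SYP111 had stage means of 4.63 at TR, 6.02 at RP, 6.66 at RH and 7.94 at GC, and TPX2 of 3.72, 5.13, 6.18 and 7.54. Both medians were lower at OC than at GC.

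**Figure D3:**
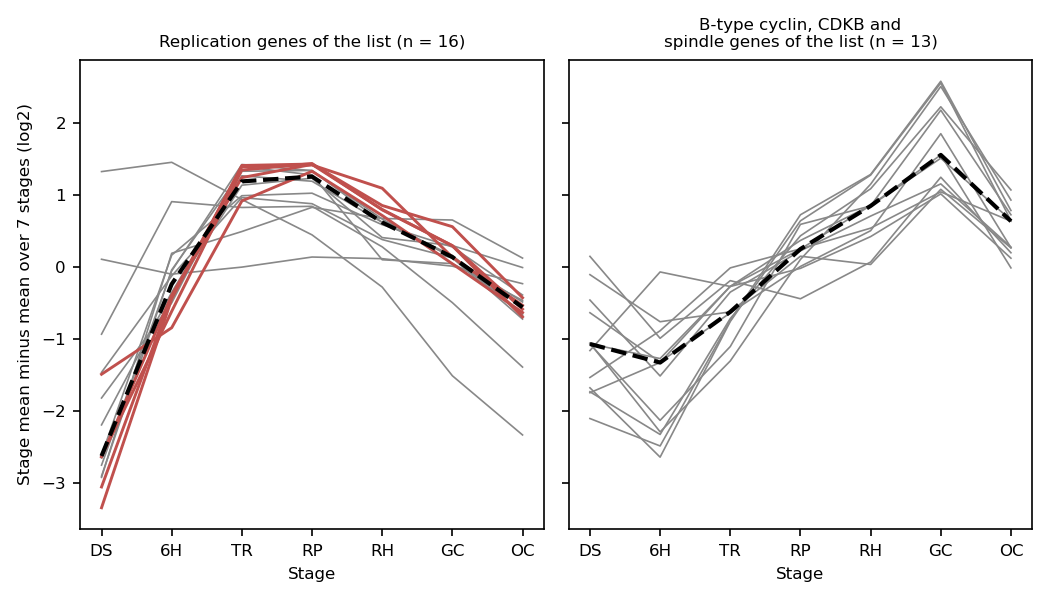
Stage means of the 16 replication genes (left) and 13 mitosis genes (right) of the list, each minus the mean of the gene over the 7 stages (log2). Red lines are the 5 genes that met the rule, grey lines the others and the dashed line the median. The left median is highest at TR and RP, and the right one at GC.

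Genes of the cuticle, lipids and the cell wall formed the second group, with 10 genes. CER1, which is needed to make the alkanes of plant wax, read 3.18, 3.88 and 3.44 at DS, 4.24, 4.27 and 3.71 at 6H, 9.52, 9.57 and 9.61 at TR, 9.61, 9.72 and 9.76 at RP, 8.48, 8.35 and 8.41 at RH, 7.68, 7.37 and 7.65 at GC and 6.87, 6.16 and 6.86 at OC. Each stage after RP lies wholly below the one before it. CER1 fell by 1.28 ± 0.19 from RP to RH (limma, adjusted p = 3.5e-05) and by 0.85 ± 0.19 from RH to GC (adjusted p = 0.0027).

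CYP96A8 is a cytochrome P450 of the CYP96A family, which holds a midchain alkane hydroxylase of wax synthesis. It read 8.27, 8.22 and 8.03 at TR, 8.26, 8.42 and 8.20 at RP, 6.39, 6.27 and 6.20 at RH, 4.31, 5.06 and 3.97 at GC and 3.85, 3.12 and 3.33 at OC. Its level was on a plateau at TR and RP and then went down stage by stage. It fell by 2.01 ± 0.22 from RP to RH (adjusted p = 9.4e-07) and by 1.84 ± 0.22 from RH to GC (adjusted p = 6.4e-06).

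CYP96A3, of the same family, kept its level a stage longer. Its arrays read 7.90, 7.72 and 7.80 at TR, 7.82, 7.80 and 8.08 at RP, 7.77, 7.92 and 7.85 at RH, 6.73, 7.03 and 7.43 at GC and 3.58, 3.94 and 4.25 at OC. TR, RP and RH overlap, GC is somewhat lower and OC is far below. The change from RP to RH was -0.05 ± 0.21 (adjusted p = 0.91), and from RH to GC it fell by 0.78 ± 0.21 (adjusted p = 0.012). PEL3 (DCR), an acyltransferase of cutin formation, had a margin of 1.68 and a change of -0.15 ± 0.18 from RP to RH (adjusted p = 0.65).

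CER1 and PEL3 were the only genes of the list of 37 wax, cutin and lipid transfer genes that met the rule, 5.41% of it. In that list 15 genes fell and 1 rose from RP to RH at adjusted p alone, 10 of the falls reaching 1, where 11.9% of all genes fell and 11.5% rose. From RH to GC 7 rose and 3 fell, where 10.1% and 10.9% of all genes did. The list's median level was 7.77 at RP, 7.01 at RH, 7.34 at GC and 7.68 at OC.

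Other wall genes peaked at different stages. BGAL7, a beta-galactosidase, and AT3G62060 (PAE6), a pectin acetylesterase, were highest at RH. AT3G62060 read 6.27, 6.37 and 6.52 at TR, 6.87, 7.01 and 6.96 at RP, 7.87, 7.65 and 7.76 at RH and 7.08, 7.05 and 7.27 at GC. TR, RP and RH did not overlap, and GC lay just above RP. From TR to RH it rose by 1.38 ± 0.16 (limma, adjusted p = 5.6e-07), and BGAL7 rose by 1.02 ± 0.15 (adjusted p = 1.5e-05), a rise that lay just under 1 without TR replicate 1 (0.99), TR replicate 3 (0.92) or RH replicate 1 (0.94).

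UGD1, which makes UDP-glucuronic acid for wall polymers, and PMR5, a wall protein, had their highest mean at TR, with margins of 1.19 and 1.31. FTM1, a stearoyl-carrier protein desaturase, read 7.58, 7.88 and 8.43 at TR, 9.09, 8.83 and 8.88 at RP and 7.99, 8.24 and 8.73 at RH, so RP lay above both neighbours on all arrays. It rose by 0.97 ± 0.32 from TR to RP (adjusted p = 0.043). AT5G14920 (GASA14), a gibberellin-stimulated wall protein, was the only one of 37 gibberellin genes that met the rule. None of the lists of 73 expansins, xyloglucan endotransglucosylases and mannanases, 34 pectin enzymes and 15 class III peroxidases held any of the 119. The pectin and peroxidase lists are partial, with 34 of 94 and 15 of 152 names measured. Their lack of members therefore does not show that the 119 hold no pectin enzyme or peroxidase. AT3G62060 was not in the pectin list.

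The 9 transcription factors had no common course. GRF7, a growth-regulating factor, read 5.15, 5.06 and 4.84 at DS, 3.66, 3.27 and 3.45 at 6H, 6.39, 6.35 and 6.59 at TR, 7.48, 7.75 and 7.98 at RP, 8.15, 8.18 and 8.25 at RH, 6.74, 6.92 and 6.93 at GC and 4.46, 4.20 and 4.67 at OC. No adjacent stages overlap. GRF7 fell by 1.56 ± 0.14 from DS to 6H (limma, adjusted p = 9.6e-09), rose by 1.29 ± 0.14 from TR to RP (adjusted p = 2.6e-06) and by 0.46 ± 0.14 from RP to RH (adjusted p = 0.025), and fell by 1.33 ± 0.14 from RH to GC (adjusted p = 1.9e-06).

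ETC1, a single-repeat MYB protein that acts in the patterning of root hairs and trichomes, ended early. Its arrays read 8.79, 9.34 and 8.95 at TR, 8.90, 9.05 and 8.97 at RP, 6.89, 7.66 and 7.38 at RH, 5.35, 5.93 and 5.53 at GC and 6.01, 6.13 and 5.96 at OC. RH was wholly below RP, and GC was below every OC array. ETC1 fell by 1.66 ± 0.20 from RP to RH (adjusted p = 3.3e-06), the step at which the summed root hair list went from 10.13 to 10.18 up to 12.97 to 13.05, and by 1.71 ± 0.20 from RH to GC (adjusted p = 5.3e-06).

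HEC2, a bHLH protein, rose by 0.97 ± 0.20 from TR to RP (adjusted p = 0.0022) and then held its level, with a change of -0.06 ± 0.20 (adjusted p = 0.89). GATA6 rose by 0.58 ± 0.17 from TR to RH (adjusted p = 0.0091). MYB120, known from pollen tubes, fell by 0.80 ± 0.16 from RP to RH (adjusted p = 0.00069). MYB25 and bHLH34 had their highest mean at TR.

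Of the 6 transport genes, 4 had their highest mean at TR, as did 24 of the 119. None of these 4 passed limma's test from TR to RP. The change at this step was -0.35 ± 0.23 in NRAMP3 (adjusted p = 0.37) and -0.14 ± 0.14 in AAP6 (adjusted p = 0.59). It was -0.06 ± 0.21 in PIP2;8 (adjusted p = 0.92) and -0.02 ± 0.14 in MSL9 (adjusted p = 0.96). SAG29 (SWEET15), a sucrose exporter also induced in ageing leaves, had its peak at RP. It read 4.47, 4.05 and 4.48 at DS, 4.37, 4.46 and 4.46 at 6H, 7.77, 7.78 and 7.42 at TR, 8.40, 8.74 and 8.82 at RP, 7.38, 7.40 and 7.40 at RH, 4.93, 5.16 and 4.98 at GC and 4.85, 4.94 and 4.62 at OC. Its RP arrays stand above all TR and RH arrays, and GC is close to OC. SAG29 rose by 0.997 ± 0.14 from TR to RP (limma, adjusted p = 4.6e-05), then fell by 1.26 ± 0.14 from RP to RH (adjusted p = 1.1e-06) and by 2.37 ± 0.14 from RH to GC (adjusted p = 1.2e-09).

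NRAMP3, which releases iron and manganese from the vacuole, read 2.85, 3.68 and 2.59 at DS and 6.69, 6.20 and 6.04 at 6H, and it rose by 3.27 ± 0.23 at this step (adjusted p = 2e-10). Its dry seed value is near background. It then read 7.88, 8.19 and 8.12 at TR, 7.41, 7.31 and 7.45 at RH and 6.05, 6.26 and 6.49 at GC, and fell by 1.12 ± 0.23 from RH to GC (adjusted p = 0.0014).

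PIP2;8, a water channel, AAP6, an amino acid permease, and MSL9, a mechanosensitive channel of root cells, also had their highest mean at TR. MSL9 fell by 0.78 ± 0.14 from RP to RH (adjusted p = 0.00025), whereas the changes of PIP2;8 (-0.34 ± 0.21) and AAP6 (-0.24 ± 0.14) did not pass (adjusted p = 0.29 and 0.25). PUP19, a purine permease family member, fell by 1.58 ± 0.16 (adjusted p = 3.4e-07). SAG29 and AAP6 were 2 of 43 genes in the list of amino acid, peptide and sugar transporters, and PIP2;8 was 1 of 32 aquaporins.

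Metabolic genes included ACO1, which carries out the last step of ethylene synthesis. It read 8.62, 8.72 and 8.70 at TR, 9.12, 9.11 and 9.13 at RP, 8.29, 8.26 and 8.31 at RH, 6.87, 6.80 and 7.26 at GC and 5.87, 5.50 and 5.63 at OC. RP was above TR and RH on all arrays. ACO1 fell by 0.84 ± 0.21 from RP to RH (limma, adjusted p = 0.0058) and by 1.31 ± 0.21 from RH to GC (adjusted p = 0.00015), while 0.44 ± 0.21 from TR to RP did not pass (adjusted p = 0.18).

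HB1, a non-symbiotic haemoglobin induced at low oxygen, read 9.54, 9.34 and 9.68 at TR, 9.97, 9.74 and 9.71 at RP, 9.22, 9.24 and 9.47 at RH and 6.55, 7.60 and 8.72 at GC. The GC replicates spread over more than 2 log2 units. It fell by 1.69 ± 0.40 from RH to GC (adjusted p = 0.0049). NDB3, an external NAD(P)H dehydrogenase of mitochondria, fell by 0.99 ± 0.29 from RP to RH (adjusted p = 0.018) and by 1.98 ± 0.29 from RH to GC (adjusted p = 7.1e-05), and its GC arrays of 5.40, 5.26 and 5.94 overlapped its OC arrays of 5.89, 5.40 and 5.13.

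FOLB3, a dihydroneopterin aldolase of folate synthesis, was highest at RH. It read 5.44, 5.78 and 5.14 at TR, 5.90, 6.05 and 6.08 at RP, 6.80, 6.88 and 6.84 at RH and 5.72, 5.87 and 5.87 at GC. RH stands apart from all the others. It rose by 0.83 ± 0.15 from RP to RH (adjusted p = 0.00045) and fell by 1.02 ± 0.15 from RH to GC (adjusted p = 8.5e-05), which came under 1 when RH replicate 2 (-0.998) or GC replicate 1 (-0.968) was left out.

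APT5 (adenine salvage), AO (the first step of NAD synthesis), c-NAD-MDH2 (cytosolic malate dehydrogenase), APL3 (a subunit of the enzyme that makes ADP-glucose for starch) and SKL2 (shikimate kinase-like) had margins between 1.08 and 1.62. AO fell by 0.68 ± 0.15 from RP to RH (adjusted p = 0.0028). Growth genes were AT1G19830 (SAUR54), of the small auxin-induced RNA family, ARL, which promotes cell expansion, and WDL1, which binds microtubules. AT1G19830 was highest at TR and fell by 1.32 ± 0.20 from TR to RH (adjusted p = 2.4e-05), while ARL rose by 0.62 ± 0.16 over the same span (adjusted p = 0.0036).

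The 3 plastid genes were all highest at RH. OVA4, a tRNA synthetase of organelles, EGY2, a plastid membrane protease, and AT4G34730 (RBF1), a ribosome maturation factor, had changes of 0.28, 0.67 and 0.71 from TR to RH. The latter pair passed the test (adjusted p = 0.00034 and 4.3e-06), and OVA4 did not (adjusted p = 0.051). OVA4 and EGY2 were among the genes with a GC mean at or above the lowest of the 3 high stages, here TR. Their GC means were below those at RP and RH.

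**Figure D4:**
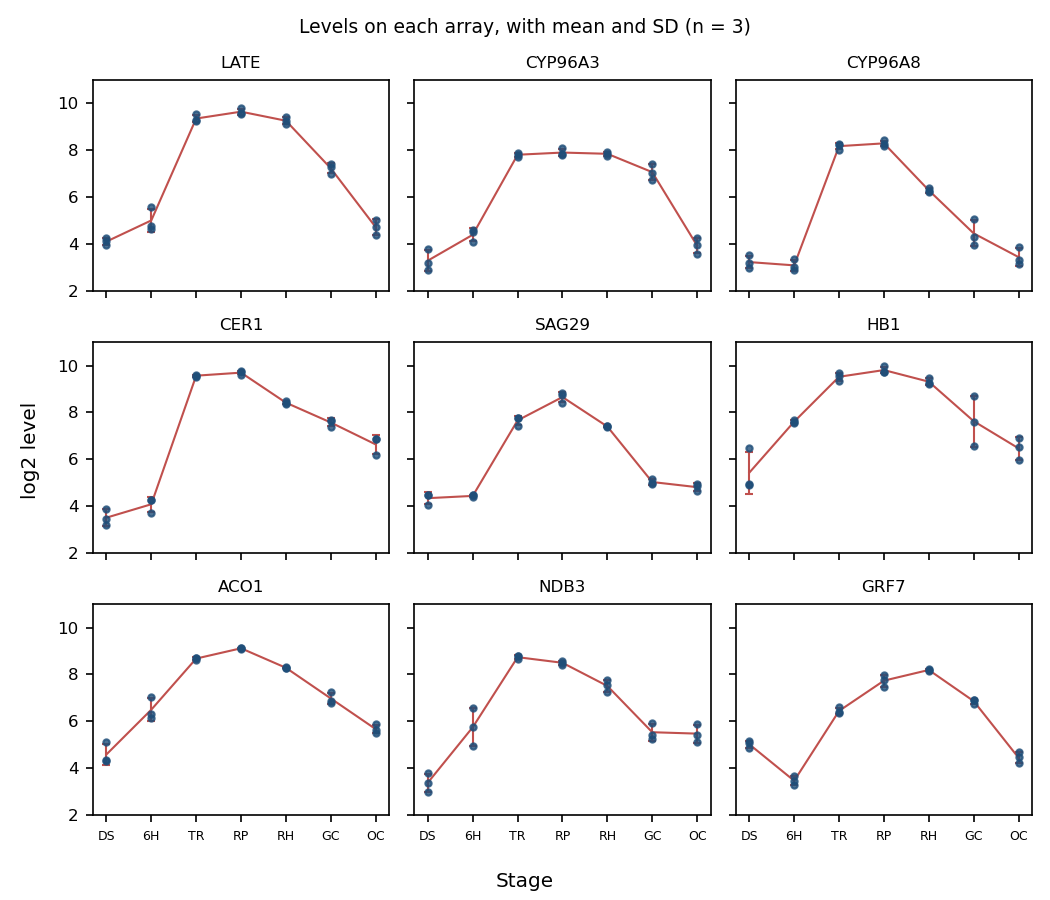
Log2 level of 9 genes on every array (points) with the mean and SD of the 3 replicates of a stage (red line and bars). LATE has the widest margin, 4.26; SAG29 peaks at RP and GRF7 at RH, and HB1 shows the wide spread of its GC replicates, 6.55 to 8.72.

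Within the plateau the counts from TR to RP and from TR to RH lay near the shares over all genes. From TR to RP 2 of the 119 rose past an adjusted p of 0.05 and a log2 change of 1, where 2.34% of all genes did. They were GRF7 and AT4G30450, which rose by 1.02 ± 0.25 (adjusted p = 0.0071) and came under that threshold without TR replicate 1 (0.93). Without TR replicate 3 the count was 4. None fell past it (limma), where 0.766% of all genes did, and only 1 fell at an unadjusted p under 0.05. With adjusted p alone 17 rose, against 7.83% of all genes. The median change was 0.18, and 92 of the 119 changes were positive, against 48.7% over all genes.

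From RP to RH 10 of the 119 fell, against 1.74% of all genes, and none rose past both thresholds (limma), where 3.65% did. At an unadjusted p under 0.05, 8 rose. Each gene also had to be low at OC, which may favour a fall already at this step. CYP96A8, ETC1, PUP19, AT4G33145, CER1 and SAG29 were among the 10, AT4G33145 with a fall of 1.45 ± 0.15 (adjusted p = 5.8e-07). AT2G27420 fell by 1.01 ± 0.19 (adjusted p = 0.00051) and AT5G45670 by 1.03 ± 0.25 (adjusted p = 0.0045), and both came under 1 when RP replicate 3 (-0.93 and -0.98) or RH replicate 1 (-0.96 and -0.98) was left out. Over the whole plateau, from TR to RH, 4 rose and 10 fell, against 7.43% and 4.92% of all genes. With adjusted p alone 21 rose and 24 fell, against 18.7% and 22.9%. The 4 that rose were GRF7, FOLB3, AT3G62060 and BGAL7.

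The order within the plateau followed from small differences. The highest mean was at RP in 68 genes, at RH in 27 and at TR in 24. The largest leads over the next stage were 0.997 for SAG29, 0.80 for AT2G27420, 0.62 for FTM1 and 0.44 for ACO1 at RP. At RH they were 0.83 for FOLB3, 0.63 for AT3G62060, 0.46 for GRF7 and 0.35 for BGAL7, and at TR 0.58 for AT2G17850, 0.47 for AT4G31760, 0.42 for AT1G19830 and 0.35 for NRAMP3.

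Many of the genes were already higher at 6H than in the dry seed. From DS to 6H 66 of the 119 rose past both thresholds, where 14.6% of all genes did, and 1 fell, GRF7, where 10.7% did. The median change was 1.24, against -0.23 over all genes. Both stages had to be low for a gene to be chosen, and 44 of the genes started below background, where a level is only a bound. Without the pair of arrays that stood apart, 63 rose (background 13.6%) and 2 fell (10.4%). The largest rise was that of AT5G45670. Its arrays read 3.72, 4.39 and 2.99 at DS and 8.66, 7.82 and 7.76 at 6H, a rise of 4.38 ± 0.25 (limma, adjusted p = 9.9e-12). AT2G34020, AT1G53070 and NRAMP3 came next.

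The difference between 6H and TR was required by the rule and is given as values only. Its median was 1.95. It was widest in CER1, from 4.24, 4.27 and 3.71 at 6H to 9.52, 9.57 and 9.61 at TR, followed by CYP96A8, from 3.34, 3.01 and 2.89 to 8.27, 8.22 and 8.03.

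The decline was under way before OC. From RH to GC 24 of the 119 fell past both thresholds, where 0.972% of all genes did, and none rose past them (limma), where 2.6% did; 1 rose at an unadjusted p under 0.05, AT4G31760. The median change was -0.58, against 0.02 over all genes. With adjusted p alone 66 fell, against 10.9%. GC had no part in the choice, but each gene had to be high at RH and low at OC, which favours a fall at this step. SAG29, LATE, NDB3 and AT2G17850 fell most, AT2G17850 by 1.97 ± 0.44 (adjusted p = 0.0027) with its deviating array included. The change of AT5G45670 was 0.02 ± 0.25 here (adjusted p = 0.98).

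Of the 24 genes, 5 had also fallen by 1 or more from RP to RH, among them SAG29, CYP96A8 and ETC1, and 19 had not. A further 5 fell from RP to RH alone, and 90 passed both thresholds at neither step.

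**Figure D5:**
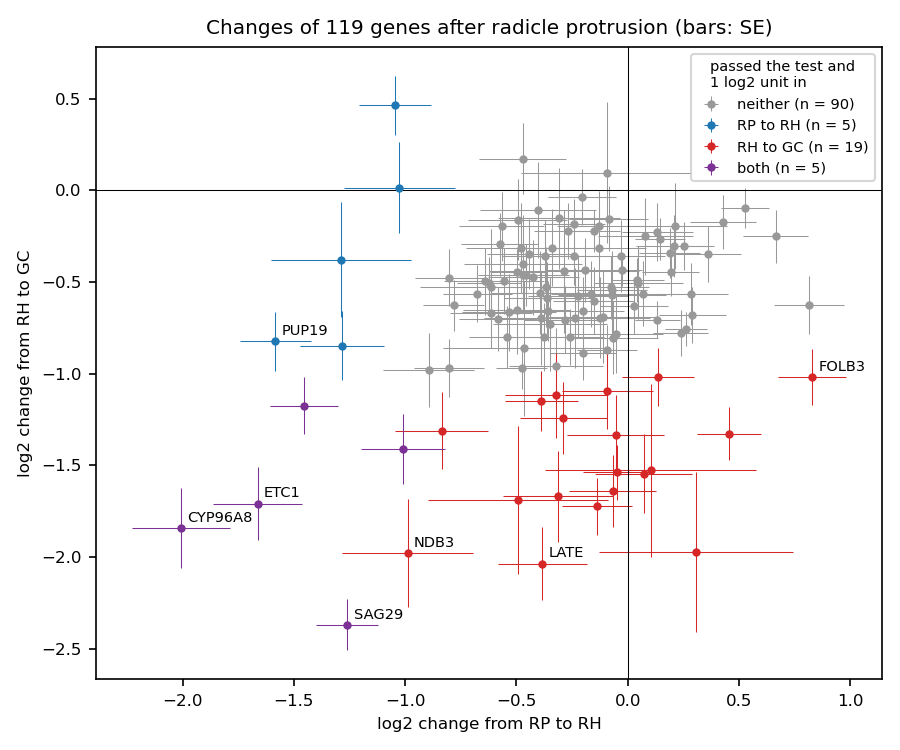
Log2 change from RP to RH (horizontal) and from RH to GC (vertical) for the 119 genes, with SE. Colours give the step or steps at which a gene passed an adjusted p of 0.05 and a change of 1: 5 genes at the first alone, 19 at the second alone, 5 at both and 90 at neither. Most points lie below 0 on the vertical axis.

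At GC the genes were on their way down and had mostly not arrived. The GC mean lay between the highest low stage and the lowest high stage in 94 genes, at or above the lowest high stage in 18 and at or below the highest low stage in 7. The last count was 4 without GC replicate 1 or without GC replicate 2, and 11 without GC replicate 3. On a scale where the highest low stage is 0% and the lowest high stage 100%, GC stood at a median of 66.6%, with a range of -33.6% to 165%. The stage of the peak went with this position: the median was 48.8% in the 24 genes highest at TR, 62.3% in the 68 highest at RP and 96.5% in the 27 highest at RH. The lowest high stage is never RH in the last group, so the scale differs between the groups. Of the 18 genes with a GC mean at or above their lowest high stage, 13 had their peak at RH. Among the other 1656 genes that were up at TR, RP and RH, 85.1% had a GC level at or above the lowest of these stages.

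ETC1, NRAMP3 and NDB3 were among the 7 genes already at or below a low stage at GC. For NRAMP3 and NDB3 that stage was 6H, and without 6H replicate 1 both lay between, while HB1 came in and the count was 6. OC had to be low by the rule, so its difference from GC is given as values only: it was -3.14 ± 0.21 in CYP96A3 and -2.92 ± 0.19 in AT4G12870.

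To describe the spread among the 119, the level of each gene was correlated with their mean course over the 21 arrays (Pearson). The rule largely fixed this course, and each gene is part of the mean. The correlations had a median of 0.953 and a range of 0.696 to 0.992. The genes nearest to the mean course were AT1G06360 (0.992), AT3G02820 (0.989) and AT3G17350 (0.986), and GRF7 was among the least alike (0.799). AT3G02820 read 4.78, 4.34 and 4.13 at 6H, 6.05, 6.23 and 6.21 at TR, 6.52, 6.22 and 6.52 at RP, 6.38, 6.05 and 6.05 at RH, 5.18, 5.63 and 5.28 at GC and 4.56, 4.48 and 4.64 at OC.

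Chromosomes 1 to 5 carried 24, 21, 19, 23 and 32 of the genes, which is 0.338%, 0.489%, 0.350%, 0.557% and 0.514% of the genes measured on each. There were 2 pairs of direct neighbours. AT1G72060 and AT1G72070 had a correlation of 0.983 over the 21 arrays, and MET1 and AT5G49170 one of 0.896. Neighbours can share transcripts, and probe sequences were not used here.

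The 119 genes are 0.428% of all genes, and a short list with no member is near that share. None was among 33 abscisic acid genes, 32 genes of fatty acid breakdown and gluconeogenesis, 22 of ribosome biogenesis or 28 tubulins and cellulose synthases. The lists of 40 genes of auxin transport and root meristem, 23 of light response and 24 proteases of tissue breakdown held none either. That protease list does not cover all proteases: EGY2, for example, a plastid protease among the 119, was not in it. Ribosome biogenesis genes came earlier than the 119: their median level was 9.79 at 6H and 9.42 at TR, 21 of 22 rose from DS to 6H at adjusted p alone, against 29.6% of all genes, and 18 fell from TR to RH, against 22.9%. Tubulin and cellulose synthase genes had a median of 8.09 at RP, 8.11 at GC and 8.0 at OC. Proteases of tissue breakdown had medians of 7.0 at RP and 5.69 at GC, and 8 of 24 fell from RH to GC at adjusted p alone, against 10.9% of all genes.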

How the data were processed

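Log2 expression values of 21 arrays were used as the authors deposited them. RMA is the method named in the submitters' processing notes (background correction, quantile normalization and 1 summary per probe set). Its version, the array's platform and its annotation are not given in the sources used here, and no coordinates are printed. Arrays give no read depth, so the number of arrays limits the precision. The deposited values covered 35986 probe sets. Of these, 215 with values identical between loci were left out with the 192 loci that had no other, and 27789 loci stayed. The remaining probe sets of a locus were averaged. Of the 119 genes 25 had several probe sets. Names came from the TAIR10.1 gene table, which gave 58 of the 119 a symbol, and synonyms stand in brackets.

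A single limma fit (version 3.58.1, under R 4.3.3) covered the 21 arrays with the 7 stages as groups, leaving 14 residual degrees of freedom. P-values were adjusted by Benjamini-Hochberg over all 27789 loci within each comparison, 2-sided, and measure the spread between the 3 biological pools of a stage. A gene counted as changed at an adjusted p under 0.05 and a log2 change of at least 1, later minus earlier. The fit was tested on simulated data. The genes and lists were chosen with earlier results of these data known. Named genes are those with the 15 largest margins, the 4 largest leads of each peak stage and up to 4 rises and falls of each comparison, members of lists, the 3 on either side of the threshold and the 3 nearest the mean course. All others were named by role after their values were seen. Alternatives covered normalization, probe set choice, dim loci, margin, variance prior, array weights, replicate block, samples in the fit and leaving out each array.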

Additional observations from a re-analysis of the deposited data

How the results depend on the processing

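The size of the set depends on the margin: 0.5 gave 547 genes, 1.5 gave 37 and 2 gave 13. A further quantile normalization gave 142 genes, with 107 of the 119 kept, and centring arrays on the median gave 148, with 113 kept. Leaving out 1 array gave 111 (without 6H replicate 3) to 142 (without 6H replicate 1). The same omissions gave 65 to 71 changes from DS to 6H, 2 to 4 for TR to RP (4 without TR replicate 3), 8 to 11 for RP to RH, 13 to 14 over TR to RH and 21 to 26 between RH and GC. The GC mean was at or above the lowest high stage in 14 to 21 genes and between in 92 to 96. It was at or below the highest low stage in 4 to 11, with 4 without GC replicate 1 or 2 and 11 without GC replicate 3. Median centring also gave 11. The highest stage was TR in 22 to 28, RP in 63 to 71, RH in 25 to 29 and GC in 0.

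With adjusted p alone the counts were 17 for TR to RP, 33 for RP to RH, 45 over TR to RH and 67 between RH and GC. The replicate block left the counts at 67, 2, 10, 14 and 24. Arrays with the same replicate number showed correlations of their deviations from -0.328 to 0.224, over 0.1 in 11 of 63 pairs. With 3 replicates per stage these cannot settle whether the numbers pair the samples, and the main fit treated them as unpaired. Centring moved the median of all genes from DS to 6H from -0.23 to -0.60, and the median of the 119 from 1.24 to 0.88. Centred, 8.84% of all genes rose and 22.2% fell. Of 1922 recomputed calls of named genes 1902 stayed past the thresholds, 20 dropped under a change of 1 and 0 reversed. In the low stages signal over background limits the values, with 44 genes below it at DS. An alternative added after the data were seen, without 6H replicate 1 and DS replicate 2 together, left all 62 named calls in place.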
